A study of Mus musculus with 4 samples.

Results

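Levels of the epithelial miR-200 family (mmu-miR-200a, mmu-miR-200b, mmu-miR-200c, mmu-miR-141 and mmu-miR-429) and of mmu-miR-203 and mmu-miR-205 were followed in whole mouse embryos with and without estrogen receptor alpha (ER-alpha, product of the Esr1 gene and a hormone-activated transcription factor). The 7 assays were taken by microRNA name from the 375 microRNA assays that real-time PCR had read in all 4 samples, and each name matched 1 assay. All embryos were C57BL/6 at E18.5; 2 samples were wild-type and 2 carried the ER-alpha knockout (ER-alpha KO), and the labels name no allele for it and no treatment. The panel holds small RNAs only, so the Esr1 transcript was not analysed here. The titles number whole embryos, and no label says if single or pooled embryos were used, so a p-value here covers no more than the scatter among these 4 samples, some of which may be technical.

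The miR-200 family is known as a guardian of the epithelial state: its members repress the transcription factors Zeb1 and Zeb2, which in turn repress the microRNA genes, and epithelial cells keep the family high while mesenchymal cells keep it low. In skin, miR-203 is known to limit the proliferative potential of keratinocytes as they differentiate, through the transcription factor p63. The microRNA miR-205 is known from the progenitor layers of stratified epithelia and shares the Zeb factors as targets. At the embryonic stage studied, the mouse has a stratified skin as well as lung, gut and kidney epithelia, and a whole embryo mixes these with far more muscle, bone, brain and blood.

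The mature sequences show how the 7 microRNAs divide, because the seed (bases 2 to 8 from the 5′ end, in capitals) sets most of a microRNA's targets. They are RefSeq's mouse sequences (GRCm38.p6). The assay names give no arm, so the arm printed is the one the plain name has stood for by convention, the 5′ arm for mmu-miR-205 and the 3′ arm for the others.
mmu-miR-200b-3p: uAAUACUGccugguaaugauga
mmu-miR-200c-3p: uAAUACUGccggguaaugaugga
mmu-miR-429-3p: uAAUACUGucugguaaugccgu
mmu-miR-200a-3p: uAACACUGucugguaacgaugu
mmu-miR-141-3p: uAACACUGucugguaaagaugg
mmu-miR-203-3p: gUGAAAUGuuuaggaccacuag
mmu-miR-205-5p: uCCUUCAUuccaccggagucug

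The family splits into a seed AAUACUG, carried by mmu-miR-200b, mmu-miR-200c and mmu-miR-429, and a seed AACACUG, carried by mmu-miR-200a and mmu-miR-141. No other mature mouse microRNA in the RefSeq table has either seed. The seeds of mmu-miR-203 and mmu-miR-205 stand alone in that table. The genome divides the family along another line. Mir200b, Mir200a and Mir429 lie within 1846 bases on the minus strand of chromosome 4 (chr4:156053905-156055750, GRCm38.p6), and Mir200c and Mir141 lie within 477 bases on the minus strand of chromosome 6 (chr6:124717914-124718390). Mir203 is a lone hairpin on chromosome 12 (chr12:112130880-112130955, plus strand), and Mir205 one on chromosome 1 (chr1:193507463-193507530, minus strand). Each cluster therefore holds both seeds. The closest relatives sit on different chromosomes. From mmu-miR-200b to mmu-miR-200c, 20 of 22 compared positions are the same, with U11G and A22G between them (positions from the 5′ end). From mmu-miR-200a to mmu-miR-141, 20 of 22 are the same, with C17A and U22G. Whether an assay also reads such a relative is not stated in the sources used here, so the split between these relatives is uncertain.

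Each well gives a threshold cycle (Ct), the cycle at which amplification crosses a threshold, so abundant RNAs have a low Ct, and a step of 1 cycle stands for about 1 log2 unit. Between 254 and 290 microRNAs were detected per sample at a Ct of 35 or lower, and the 229 detected in all 4 samples were tested. Wild-type replicate 1 stood apart. Its Ct values correlated with those of the other samples at Pearson r of 0.939 to 0.954 across the 229 assays, while the other 3 samples correlated at 0.978 to 0.989; assays are not independent replicates. After subtraction of an offset of 0.273, all of its 229 tested wells fell no more than 0.1 from a whole number of cycles, so that it resolves differences of about 1 cycle. This holds for the 7 epithelial assays too, which fell 0.006 to 0.053 cycles from one. Results are therefore given with and without that sample. Leaving it out was done in 2 ways: with the 241 microRNAs then detected in all remaining samples chosen anew and each sample recentred on them, and with the 229 assays and their centring kept. Recentring moved the log2 fold change of every assay by the same -0.33, so the 2 ways differ in sign for some assays but not in where an assay stands relative to the panel's median. Tissue markers matched the label of a whole embryo: all 20 marker assays on the panel for striated muscle, nervous system, liver, blood, endothelium and mesenchyme were detected in every sample.

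All 7 epithelial microRNAs were detected in every sample, with Ct values from 21.3 to 30.2, well before the limit of 35. The skin microRNA mmu-miR-203 came up first, at Ct 24.3 in wild-type replicate 1 and 21.3 in replicate 2, and at 22.0 and 21.4 in the ER-alpha KO samples. By mean level it was the 8th of the 229 tested microRNAs. The samples other than wild-type replicate 1 lay within 0.7 cycles of each other, and wild-type replicate 1 came up more than 2 cycles later. The Ct values of mmu-miR-205 were 28.3 and 27.8 in the wild-type samples and 28.2 and 28.1 in the ER-alpha KO samples. This microRNA ranked 117th, and its 4 values lay within 0.5 cycles, with no delay in wild-type replicate 1 like that of mmu-miR-203.

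Of the family members with the seed AAUACUG, mmu-miR-200c was read at Ct 25.2 and 23.4 in the wild-type samples and 23.9 and 23.8 in the ER-alpha KO samples. On chromosome 4, mmu-miR-429 was read at 25.25 and 24.01 in the wild-type samples and 23.97 and 23.94 in the ER-alpha KO samples. Its neighbour mmu-miR-200b was read at 26.3 and 24.4 in the wild-type samples and 24.7 and 24.6 in the ER-alpha KO samples. These 3 stood at ranks 23, 25 and 39 of the panel, and in each of them wild-type replicate 1 was latest while the other 3 samples lay close together.

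Of the members with the seed AACACUG, mmu-miR-200a was read at Ct 27.2 and 25.4 in the wild-type samples and 25.6 and 25.8 in the ER-alpha KO samples. The last of the 7 was mmu-miR-141, at 30.2 and 28.3 in the wild-type samples and 28.5 and 29.0 in the ER-alpha KO samples. They ranked 62nd and 137th of the 229, so the 5 family members spread over a wide range of the panel although they come from 2 precursor clusters.

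To compare samples, each was centred on the median Ct of its 229 tested microRNAs (27.4 to 29.2), and the relative level is minus the centred Ct, in log2 units. The order of levels was mmu-miR-203, mmu-miR-200c, mmu-miR-429, mmu-miR-200b, mmu-miR-200a, mmu-miR-205 and mmu-miR-141 in 3 of the 4 samples. In wild-type replicate 1 mmu-miR-429 and mmu-miR-200c differed by 0.001 log2 units and were in effect tied. These are readings of different assays whose efficiencies are not stated in the sources used here, so the order is one of assay signals and not of molecules. Between neighbours in the order, mmu-miR-200c exceeded mmu-miR-429 by -0.001 to 0.62 log2 units over the 4 samples, a gap no larger than its own spread. The gap of mmu-miR-205 over mmu-miR-141 ran from 0.28 to 1.99 log2 units, above 0 in 4 of 4 samples, and it was widest in wild-type replicate 1. Each of the other 4 neighbour gaps was at least 0.43 log2 units in every sample.

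**Figure D1:**
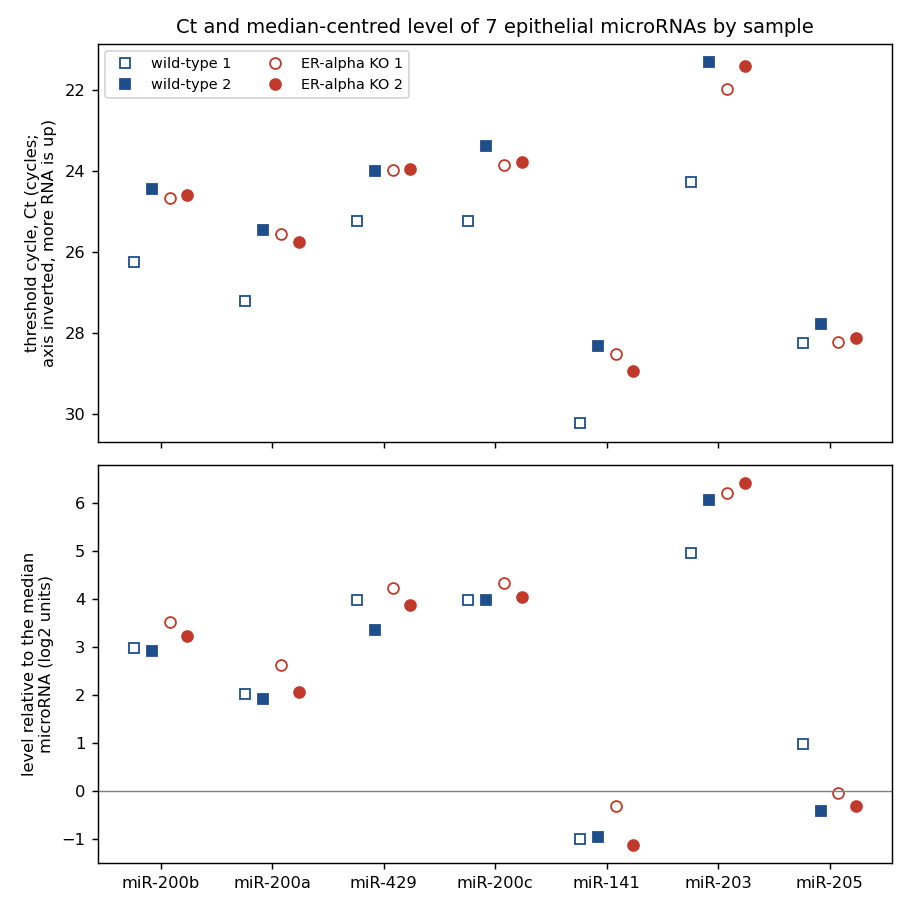
The upper panel plots the Ct of each of the 7 epithelial microRNAs (cycles, inverted axis) and the lower panel the level relative to the median tested microRNA of the sample (log2 units); each point is 1 sample, squares are wild-type and circles ER-alpha KO, and replicate 1 is open. Wild-type replicate 1 is latest in Ct for all 7, and after centring it stays apart for miR-203 (4.96 against 6.06 to 6.41) and miR-205 (0.98 against -0.42 to -0.045).

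The comparison the study was built on asked whether these levels differ between ER-alpha KO and wild-type embryos. In the 4 samples, levels of 6 of the 7 microRNAs were higher in ER-alpha KO embryos and that of mmu-miR-205 was lower, but 0 of the 7 passed the test (limma, adjusted p of 0.05 over the 229 assays; 0 of 7 also at an unadjusted p of 0.05). The 7 adjusted p-values of limma lay between 0.939 and 0.950. In the whole panel 0 of 229 passed (0% called), and 10 (4.37%) had an unadjusted p under 0.05. In RNA of a whole embryo, a change in the share of epithelial cells and a change in a microRNA per cell cannot be told apart.

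The widest difference was that of mmu-miR-203, whose relative level was 4.96 log2 units in wild-type replicate 1 and 6.06 in replicate 2, against 6.21 and 6.41 in the ER-alpha KO samples. Both ER-alpha KO samples lay above both wild-type samples, the second of which was close to them. The means were 5.51 ± 0.78 in wild-type and 6.31 ± 0.14 in ER-alpha KO (SD, n = 2 each), a log2 fold change of 0.81 with a standard error of 0.64 (1.75-fold; limma adjusted p = 0.939). The 95% interval ran from -0.45 to 2.06, that is from 0.734-fold to 4.16-fold. Leaving out wild-type replicate 1 gave a log2 fold change of 0.25 with the centring kept and -0.077 after recentring, against panel medians of 0.30 and -0.031. Without wild-type replicate 2, which leaves 1 wild-type sample, it was 1.36 with the centring kept and 1.47 after recentring.

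Levels of mmu-miR-205 were 0.98 and -0.42 log2 units in the wild-type samples and -0.045 and -0.32 in the ER-alpha KO samples. The ER-alpha KO samples lay between the wild-type replicates, so the groups overlapped. The log2 fold change was -0.46 (0.726-fold, 95% interval -1.71 to 0.79, limma adjusted p = 0.939). Without wild-type replicate 1 it was 0.23 with the centring kept and -0.097 after recentring. Without wild-type replicate 2, which leaves 1 wild-type sample, it was -1.16 with the centring kept and -1.04 after recentring.

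On chromosome 4, mmu-miR-200b had levels of 2.98 and 2.92 log2 units in the wild-type samples and 3.53 and 3.23 in the ER-alpha KO samples. The groups did not overlap, and the log2 fold change of 0.43 (95% interval -0.83 to 1.68, limma adjusted p = 0.939) was 0.46 without wild-type replicate 1 with the centring kept and 0.13 after recentring. Levels of mmu-miR-200a were 2.01 and 1.92 in the wild-type samples and 2.63 and 2.07 in the ER-alpha KO samples. The second ER-alpha KO sample stood just above the wild-type values, and the log2 fold change of 0.38 was 0.43 without wild-type replicate 1 with the centring kept and 0.10 after recentring. The third member, mmu-miR-429, had 3.99 and 3.35 in the wild-type samples and 4.22 and 3.88 in the ER-alpha KO samples. Here the groups overlapped, and the log2 fold change of 0.38 was 0.70 without wild-type replicate 1 with the centring kept and 0.37 after recentring. It was the member farthest above the panel's median without that sample, by 0.40.

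On chromosome 6, levels of mmu-miR-200c were 3.99 and 3.97 log2 units in the wild-type samples and 4.33 and 4.04 in the ER-alpha KO samples. The wild-type replicates were 0.013 apart, the closest of the 7, but wild-type replicate 1 reads in whole cycles and cannot resolve such a gap. The log2 fold change was 0.20. With wild-type replicate 1 left out it was 0.21 with the centring kept and -0.12 after recentring. Its partner mmu-miR-141 had -1.01 and -0.97 in the wild-type samples and -0.32 and -1.13 in the ER-alpha KO samples. The ER-alpha KO values lay on both sides of the wild-type values, and the log2 fold change of 0.26 was 0.24 without wild-type replicate 1 with the centring kept and -0.090 after recentring. With 1 standard error of 0.64 shared by all assays, the 95% intervals of the 5 family members together ran from -1.05 to 1.68 (0.483-fold to 3.2-fold). That error pools the scatter of the whole panel. With ordinary variances the standard errors of the 5 ran from 0.15 (mmu-miR-200c) to 0.40 (mmu-miR-141), each resting on few samples, and no assay passed.

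**Figure D2:**
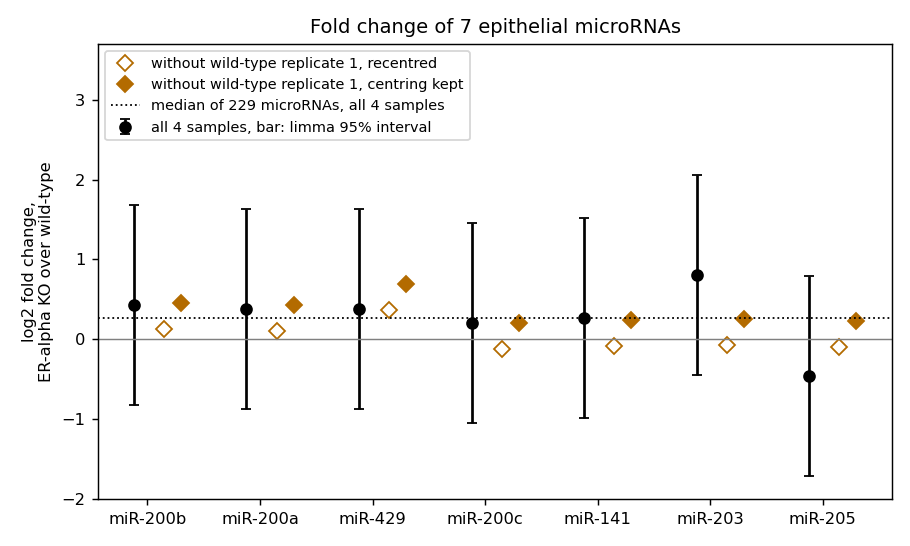
Log2 fold change of ER-alpha KO over wild-type for each of the 7 epithelial microRNAs; filled circles with bars are all 4 samples with limma's 95% interval, diamonds the values without wild-type replicate 1 (open after recentring, filled with the centring kept), and the dotted line is the median of all 229 tested microRNAs (0.26). Every interval includes 0, and without wild-type replicate 1 the 7 values lie between -0.12 and 0.37 after recentring and between 0.21 and 0.70 with the centring kept.

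The median log2 fold change of the 7 was 0.38, and that of all 229 was 0.26. Of the 7, 6 lay above 0, where 68.1% of all assays did, and 4 lay above the panel's median, where 49.8% did. The groups did not overlap for 4 of the 7 (mmu-miR-200a, mmu-miR-200b, mmu-miR-200c and mmu-miR-203), each time with ER-alpha KO higher; 33.2% of all assays separated with ER-alpha KO higher and 6.11% with ER-alpha KO lower. For mmu-miR-200a, mmu-miR-200b and mmu-miR-200c the nearest samples were ER-alpha KO replicate 2 and wild-type replicate 1. Their levels were 2.07 against 2.01, 3.23 against 2.98 and 4.04 against 3.99. These gaps lie below the step of about 1 cycle that wild-type replicate 1 resolves. The count of members that separated moved with the scaling. Relative to the 5 small-RNA controls 1 of the 7 separated upward (mmu-miR-429) and 1 downward (mmu-miR-205), where 20.5% and 6.55% of all assays did. For mmu-miR-205 this rested on -3.69 in ER-alpha KO replicate 2 against -3.65 in wild-type replicate 1, also below that step. With centring on an average profile 1 separated upward (mmu-miR-200b) and 2 downward (mmu-miR-200c and mmu-miR-205), where 20.5% and 18.3% of all assays did. The direction of single members moved as well: mmu-miR-200c was below 0 with quantile normalization, with average-profile centring and with detection at a Ct of 32. With quantile normalization mmu-miR-200a and mmu-miR-429 were below 0 too, and with the other 2 settings mmu-miR-141 was. The higher level of mmu-miR-203 and mmu-miR-200b and the lower level of mmu-miR-205 kept their direction under each scaling tried with all 4 samples. Each of these scalings includes wild-type replicate 1. Without it mmu-miR-203 was -0.077 after recentring and mmu-miR-205 was 0.23 with the centring kept.

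Without wild-type replicate 1 and with the centring kept, the median of the 7 was 0.25, the panel's was 0.30, and 7 of the 7 lay above 0. After recentring the medians were -0.077 and -0.031, and 3 of the 7 lay above 0. Under both, 3 of the 7 lay above the panel's median. The median distance of the 7 from the panel's median was 0.091, against 0.25 for all 229 assays; with all 4 samples these were 0.12 and 0.34. With the centring kept, 1 of 229 passed without wild-type replicate 1 and 13 passed without wild-type replicate 2, none of them among the 7.

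**Figure D3:**
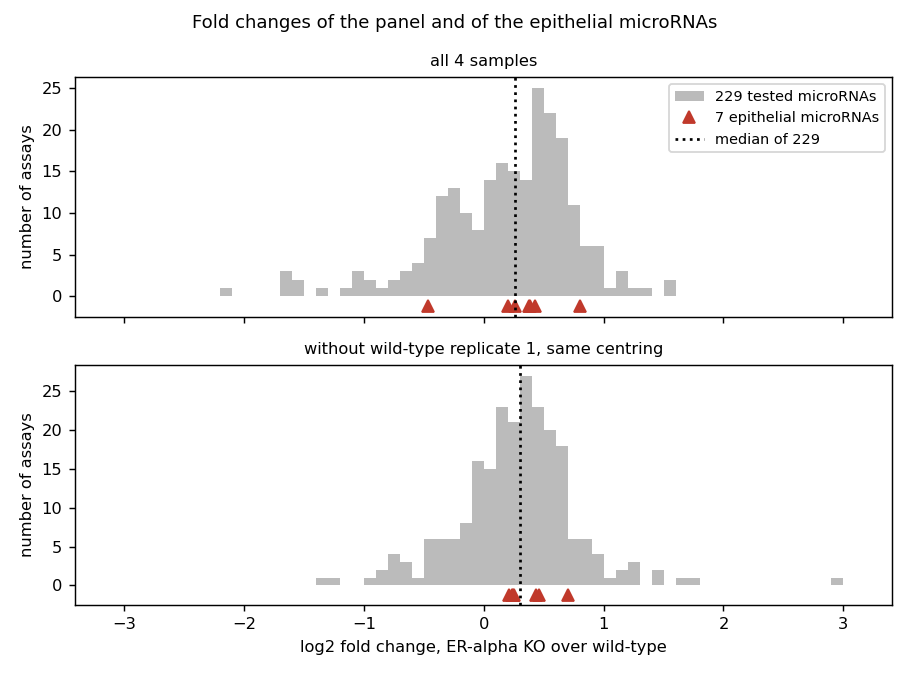
Histograms of the log2 fold change of ER-alpha KO over wild-type for the 229 tested microRNAs (grey, bins of 0.1), with the 7 epithelial microRNAs as triangles under the axis; the upper panel uses all 4 samples and the lower one leaves out wild-type replicate 1 with the centring kept. The triangles lie inside the bulk of the panel in both, and the panel's median (dotted) is 0.26 in the upper and 0.30 in the lower one.

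With median centring, the 5 members of the miR-200 family each had their highest level in ER-alpha KO replicate 1, at 2.63 to 4.33 log2 units for 4 of them and -0.32 for mmu-miR-141. Relative to the small-RNA controls this held for 1 of the 5, mmu-miR-200a; mmu-miR-200b and mmu-miR-429 were then highest in ER-alpha KO replicate 2, and mmu-miR-200c and mmu-miR-141 in wild-type replicate 2. With median centring, ER-alpha KO replicate 1 held the highest level for 55.0% of all tested assays. It also held the highest mean of the epithelial list and of each of the 6 other tissue marker lists: striated muscle 5.02 against 4.28 to 4.73 in the other samples, nervous system 1.10 against 0.90 to 1.08, liver 3.37 against 2.01 to 2.56, and mesenchyme 3.92 against 3.25 to 3.39. Blood stood at 0.45 against -0.40 to 0.20, and endothelium at 8.02 against 7.20 to 8.0. The liver and endothelium lists hold 1 assay each, and the leads for nervous system and endothelium were narrow. How much of the family's values is part of this shared pattern was not tested.

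A difference between 2 microRNAs of the same sample is not changed by a shift of the whole sample, as median centring and control scaling make, and 6 pairs that share a cluster, a seed or a tissue were compared in this way. On chromosome 4, mmu-miR-200b exceeded mmu-miR-200a by 0.97 and 1.00 log2 units in the wild-type samples and by 0.90 and 1.16 in the ER-alpha KO samples. The 4 samples gave nearly 1 spacing, and the group means differed by 0.041. Against mmu-miR-429, mmu-miR-200b stood at -1.01 and -0.43 in the wild-type samples and -0.69 and -0.66 in the ER-alpha KO samples. The ER-alpha KO samples fell between the wild-type ones. On chromosome 6, mmu-miR-200c exceeded mmu-miR-141 by 4.999 and 4.943 in the wild-type samples and by 4.65 and 5.17 in the ER-alpha KO samples, a wide spacing within 1 cluster that the ER-alpha KO samples held on both sides of the wild-type values.

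Across the clusters, mmu-miR-200b minus mmu-miR-200c, which share a seed, was -1.01 and -1.06 log2 units in the wild-type samples and -0.80 and -0.81 in the ER-alpha KO samples. The groups of this pair did not overlap. Any 4 distinct values separate under 0.333 of the possible splits into 2 against 2. The share of all pairs of tested assays that separate was not computed, so the separation carries no weight by itself. The means were -1.03 ± 0.037 and -0.81 ± 0.0070 (SD, n = 2 each), a difference of 0.22 with a two-sided exact permutation p = 0.333, the smallest that 2 against 2 samples can give (1 after adjustment over the 6 pairs). Wild-type replicate 1 reads in whole cycles, a step larger than this difference, and without it the difference was 0.25. The other seed pair, mmu-miR-200a minus mmu-miR-141, was 3.02 and 2.88 in the wild-type samples and 2.96 and 3.20 in the ER-alpha KO samples, and its groups overlapped. For each of the 6 pairs the adjusted exact permutation p was 1.

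The skin pair behaved otherwise. The level of mmu-miR-203 exceeded that of mmu-miR-205 by 3.98 and 6.47 log2 units in the wild-type samples and by 6.26 and 6.73 in the ER-alpha KO samples. Of the 4 samples, 3 lay within 0.5 log2 units, and wild-type replicate 1 lay more than 2 below them. The group means differed by 1.27 (two-sided exact permutation p = 0.667), by 0.019 without wild-type replicate 1, and by 2.52 without wild-type replicate 2. Between the wild-type replicates mmu-miR-203 differed by 1.10 log2 units and mmu-miR-205 by 1.39 in the other direction. Gaps of at least that size were seen in 22.7% and 14.4% of the 229 assays. The 4 wells of the control U6 spanned 1.14 cycles in wild-type replicate 1 and 0.14 to 0.40 in the other samples, and the part of such well-to-well spread in these gaps was not tested, since each microRNA has 1 well.

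The spacing within the family had a smaller median spread than that of all pairs of the panel. Over the 4 samples the SD of the level difference had a median of 0.22 log2 units over the 10 pairs of family members (0.11 to 0.34), against 0.61 over all 26106 pairs of tested assays. Without wild-type replicate 1 the medians were 0.19 and 0.39. For the 10 pairs of a family member with mmu-miR-203 or mmu-miR-205 the median was 0.68, and 0.27 without wild-type replicate 1. Pairs that share an assay are not independent, so these are descriptions with no test.

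**Figure D4:**
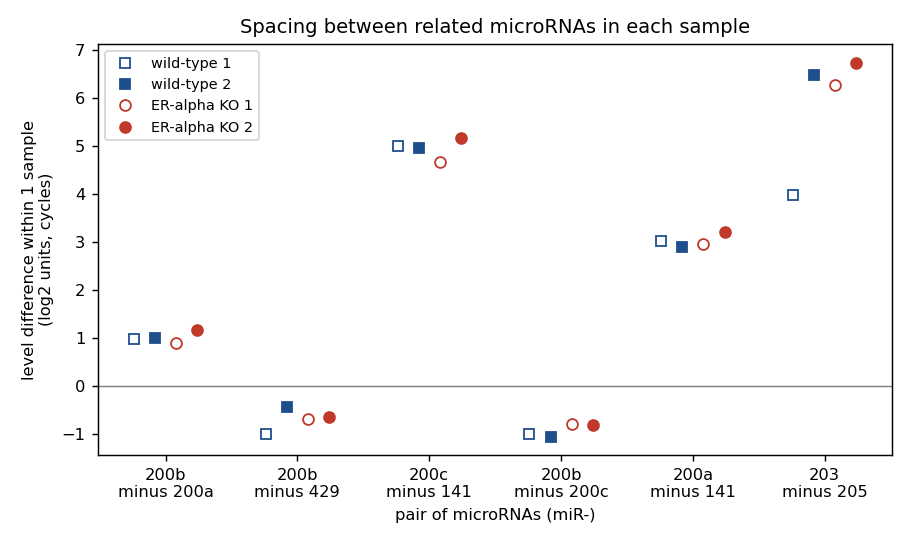
Level difference within 1 sample for 6 pairs of epithelial microRNAs (log2 units, equal to cycles); each point is 1 sample, squares are wild-type and circles ER-alpha KO, and replicate 1 is open. Points of a pair lie within 0.6 of each other for the 5 pairs of the miR-200 family, and for miR-203 minus miR-205 wild-type replicate 1 (3.98) lies below the other samples (6.26 to 6.73).

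MicroRNAs that other epithelia use gave a second view of the same tissues. The list held miR-182, miR-183 and miR-96 of sensory epithelia, miR-192, miR-194 and miR-215 of gut and kidney, miR-34b, miR-34c, miR-449a and miR-449b of ciliated cells, miR-31 of skin, and miR-375, miR-7a and miR-7b of endocrine epithelium. Of 14 assays on the panel, 12 were tested and 0 passed in either direction (limma), as in the whole panel. Of the 12, 1 (miR-34c) had an unadjusted limma p under 0.05, where 4.37% of all assays did. Above 0 lay 10 of 12, where 68.1% of all assays did, and above the panel's median 8 of 12, where 49.8% did. The median log2 fold change of the 12 was 0.47. Without wild-type replicate 1 it was 0.24 with the centring kept and -0.095 after recentring, with 6 of 12 above the panel's median. The values ran from -1.59 for miR-34c to 1.11 for miR-7b, both read at a Ct of 32 or later in every sample. When wild-type replicate 1 was left out, these were -1.25 and 1.70 with the centring kept and -1.58 and 1.37 after recentring.

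The mesenchymal list, microRNAs of connective tissue that the miR-200 family is commonly set against, had 10 assays on the panel. Of the 9 tested, 0 passed in either direction (limma), as in the whole panel. Of the 9, 1 (miR-199a-5p) had an unadjusted limma p under 0.05, where 4.37% of all assays did. Above 0 lay 8 of 9, where 68.1% of all assays did, and above the panel's median 5 of 9, where 49.8% did. The median log2 fold change of the 9 was 0.33. With wild-type replicate 1 left out, the median was 0.39 with the centring kept and 0.060 after recentring, with 6 of 9 above the panel's median. The values ran from -1.58 for miR-199a-5p to 0.58 for miR-199a-3p, the other arm of its hairpin; without wild-type replicate 1 they were 0.11 and 0.49 with the centring kept and -0.23 and 0.16 after recentring. Set against this list, the median level of the 7 epithelial microRNAs stood 0.95 and 0.71 log2 units higher in wild-type and 0.64 and 1.06 higher in ER-alpha KO samples. The ER-alpha KO samples enclosed the wild-type samples, so the balance of the epithelial and mesenchymal lists did not separate the genotypes.

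The tested microRNAs whose course over the 4 samples was closest to the mean of the 7 were miR-27a, miR-30d, miR-337-5p, let-7i and miR-26b. Their distance (Euclidean, over 4 centred levels) was 0.12, 0.14, 0.17, 0.17 and 0.17 log2 units, against a median of 0.70 for the 222 other assays. The mean course itself was flat, at -0.067 and -0.22 log2 units from its average in wild-type embryos, and 0.31 and -0.027 in ER-alpha KO embryos. Of the 7, mmu-miR-200c (0.13), mmu-miR-200b (0.16) and mmu-miR-200a (0.19) lay closest to it. Far from it lay mmu-miR-203 (1.10) and mmu-miR-205 (1.16), in opposite directions in wild-type replicate 1 (-0.95 and 0.93), where they offset each other in the mean. Each of the 7 is part of that mean, and the 5 other assays were picked for their small distances, so all these distances are descriptions with no test.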

How the data were processed

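Total RNA of 4 whole-embryo samples was extracted with TRIzol and amplified for 40 cycles in TaqMan assays, per the labels' protocols. The authors deposited Ct values, per the file headers; threshold, baseline and any normalization are not given in the sources used here. Undetermined wells, and values past cycle 40 in wild-type replicate 1, were treated as not amplified, and the 4 U6 wells were averaged. A microRNA was tested if its Ct was 35 or lower in every sample. Each sample was centred on its median. The test was that of limma 3.58.1 (R 4.3.3; lmFit and eBayes, two-sided, with genotype alone in the model), with Benjamini-Hochberg adjustment over 229 assays. The moderation was complete, which gives every assay the same standard error. Pairs were compared by exact permutation. Python 3.11.15, pandas 2.3.3 and matplotlib 3.10.9 served for tables and plots. The 7 assays named were fixed by name, list members were named by the largest and the smallest fold change, and 5 assays by likeness; miR-34c and miR-199a-5p fall under that rule. A list name also took assays with an arm added to it. All members and lists were chosen with earlier results of these data known. Alternatives covered the scaling, the detection limit, the variance model, the replicate number and each sample left out with recentring; leaving each out with the centring kept was added after the data were seen. PCR gives no counts, so the number of samples limits the precision.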

Additional observations from a re-analysis of the deposited data

How the results depend on the processing

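The count of microRNAs past the adjusted threshold (0) was 1 with the replicate number as a replicate block (limma adjusted p = 0.00578, mmu-miR-324-3p, named after its value was seen) and 0 under each other alternative chosen at the start (smallest limma adjusted p of 0.0985 to 0.9996). With a sample left out and the centring kept, chosen after the data were seen, it was 0 to 13: 13 without wild-type replicate 2 and 1 (mmu-miR-687) without wild-type replicate 1. With a sample left out, the lone sample of its group is assumed to vary like the other group. For the 7, the block gave limma adjusted p from 0.732 to 0.872. Same-numbered samples deviated together (r = 0.37), but there are only 2 pairs and the labels give the numbers no meaning, so no pairing was assumed. The median log2 fold change of the 7 (0.38) was 0.66 with control scaling, 0.67 without normalization, -0.053 with quantile normalization, 0.069 with average-profile centring, 0.083 at a Ct of 32, 0.80 with no filter, and -0.077 to 0.58 with a sample left out, with or without recentring. Single log2 fold changes changed sign as follows. With quantile normalization miR-200a was -0.13, miR-200c -0.053 and miR-429 -0.074. With average-profile centring miR-141 was -0.048 and miR-200c -0.11, and at a Ct of 32 they were -0.034 and -0.095. Without wild-type replicate 1 miR-141 was -0.090, miR-200c -0.12 and miR-203 -0.077 after recentring, and miR-205 was 0.23 with the centring kept. Without ER-alpha KO replicate 1 miR-141 was -0.14 in both. Over the samples left out, with or without recentring, miR-141 ranged from -0.14 to 0.67, miR-200c from -0.12 to 0.35, miR-203 from -0.077 to 1.47 and miR-205 from -1.16 to 0.23. Of the pair spacings, miR-200b with miR-200a ranged from -0.090 to 0.17, miR-200b with miR-429 from -0.24 to 0.33 and miR-200c with miR-141 from -0.32 to 0.20. Recentring moved every assay by the same -0.33 without wild-type replicate 1; the other causes were not tested. The other 146 values kept their direction, and those of single microRNAs also their side of the threshold. Some of the 146 could not change direction. The variance models and the block leave a fold change as it is, and the block and the detection limit leave a pair spacing as it is.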
